A study of Mus musculus with 24 samples.

Results

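The Wnt receptors, feedback genes and target genes followed here are 10 genes, Lgr4, Lgr5, Rnf43, Znrf3, Axin2, Nkd1, Sp5, Ascl2, Lef1 and Tcf7, taken by symbol from 3 tables of mouse liver organoid RNA. Each symbol had exactly 1 row in each table, so all 10 were found among 31053, 25876 and 20729 listed genes. The first table held 12 libraries: 3 labelled Pri-Hep, primary hepatocytes that the study isolated from adult wild-type BALB/c mice by Percoll gradient and EpCAM-negative selection, and 3 each of hepatocyte organoids at passage 1, 5 and 10 (Hep-Orgs P1, P5 and P10), which the study grew in hepatocyte medium with the Notch pathway inhibitor DAPT and dexamethasone. The second held 9 libraries of cholangiocyte organoids from EpCAM-positive cells of wild-type adult BALB/c liver, grown in cholangiocyte medium, 3 each at passage 0, 5 and 10 (Cho-Orgs P0, P5 and P10). The third held 1 Smart-Seq library for each of 3 shapes of hand-picked P0 Hep-Orgs, grape-like, round-like and in between (intermediate), before DAPT and dexamethasone were added. Labels number the replicates, and the sources call them mice in one place and cultures in another, so p-values measure only the spread between these samples.

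Canonical Wnt signals reach the nucleus through beta-catenin, which a destruction complex otherwise degrades. R-spondins bind LGR receptors and remove the membrane ligases RNF43 and ZNRF3, which clear Frizzled receptors from the cell surface. Axin2, Rnf43, Znrf3, Nkd1 and Sp5 are themselves Wnt-induced and damp the signal, while Lgr5 and Ascl2 are Wnt-dependent genes of intestinal stem cells. In liver, Wnt signals from endothelial cells pattern pericentral hepatocytes, and Lgr5 marks cultured bile duct organoids. By the study's recipe the media differed in this pathway: both held R-spondin, the cholangiocyte medium also Wnt3a, and the hepatocyte medium no Wnt3a but the GSK3 inhibitor CHIR99021.

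Levels are given as FPKM, that is, fragments scaled to gene length and to the library's total. Whole fragment counts could be recovered from them and summed to between 14068906 and 27160365 per library for the hepatocyte table, 35767081 and 38151328 for the Cho-Orgs, and 39358364 and 40383986 for Smart-Seq. The labels did not match the markers everywhere: the libraries labelled Pri-Hep held Alb, the main plasma protein of hepatocytes, at 106 to 121 FPKM and the duct keratin Krt19 at 229 to 241 FPKM, as the Hep-Orgs did (107 to 128 and 235 to 247). In the Cho-Orgs, Alb went from 4526 to 5254 FPKM at P0 to 0.534 to 0.647 FPKM at P10, while Krt19 was 996 FPKM or more throughout. Over the 12 libraries of the hepatocyte table, 10 cholangiocyte markers summed to 4452 to 4699 FPKM and 10 hepatocyte markers to 609 to 671. Comparisons with Pri-Hep are therefore comparisons with the libraries so labelled, and Hep-Orgs is likewise used as a label. In these bulk libraries, fewer cells of a type and less RNA per cell cannot be told apart.

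The promoters of the members are shown first because Sp5 and Axin2, both Wnt-induced feedback genes, later moved apart. RefSeq start-site windows on GRCm38.p6, 250 bases before to 50 bases after the start, matched 8 of the 10 genes in 13 windows. Lgr5 and Znrf3 had no window. The core recognition letters of TCF/LEF factors, CTTTGAT and CTTTGAA, searched on both strands, occurred in 1 of the 13 windows, that of Sp5, at position -104 from the start. Among all 32851 windows, 3.73% held CTTTGAT, 5.14% held CTTTGAA and 8.65% held either, so 1 in 13 is no more than among promoters at large. The 250 bases upstream of Sp5 (chr2:70474673-70474922, plus strand) are given 5′ to 3′ with the match in capitals, and those of Axin2 (chr11:108920099-108920348, plus strand) and Lgr4 (chr2:109917397-109917646, plus strand) for comparison, with no match to mark. A match is a description of letters and not of binding, and its part in the levels of Sp5 and Axin2 was not tested.
Sp5: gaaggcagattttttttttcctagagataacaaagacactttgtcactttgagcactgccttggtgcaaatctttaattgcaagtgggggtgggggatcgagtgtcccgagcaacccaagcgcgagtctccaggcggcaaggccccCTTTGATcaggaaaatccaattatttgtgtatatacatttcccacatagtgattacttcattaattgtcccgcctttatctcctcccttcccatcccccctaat
Axin2: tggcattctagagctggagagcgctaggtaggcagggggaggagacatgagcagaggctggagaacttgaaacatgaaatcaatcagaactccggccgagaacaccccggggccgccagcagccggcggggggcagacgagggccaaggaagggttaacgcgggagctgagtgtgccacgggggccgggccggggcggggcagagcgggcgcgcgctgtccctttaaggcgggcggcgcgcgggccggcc
Lgr4: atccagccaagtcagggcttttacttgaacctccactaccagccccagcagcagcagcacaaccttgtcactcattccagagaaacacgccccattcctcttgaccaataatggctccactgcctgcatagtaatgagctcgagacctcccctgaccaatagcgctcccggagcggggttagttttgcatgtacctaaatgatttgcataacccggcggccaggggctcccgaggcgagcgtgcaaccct

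In Cho-Orgs, 4 members fell between P0 and P10, both R-spondin receptors (Lgr5 and Lgr4), the ligase gene Rnf43 and the scaffold gene Axin2, and the other 2 tested, Znrf3 and Sp5, ended near their starting level. Tests were limma fits on log2(FPKM + 1) with all 3 passages in 1 model and Benjamini-Hochberg adjustment over the 11593 genes with at least 1 FPKM in 3 or more libraries. Of the 10 members, 6 passed that filter. Called lower in P10 against P0 were 4 of the 6 and called higher 0, where 31.3% of all tested genes were called lower and 41% higher. The median log2 difference of the 6 was -0.91, beside 0.07 over all genes tested.

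**Figure D1:**
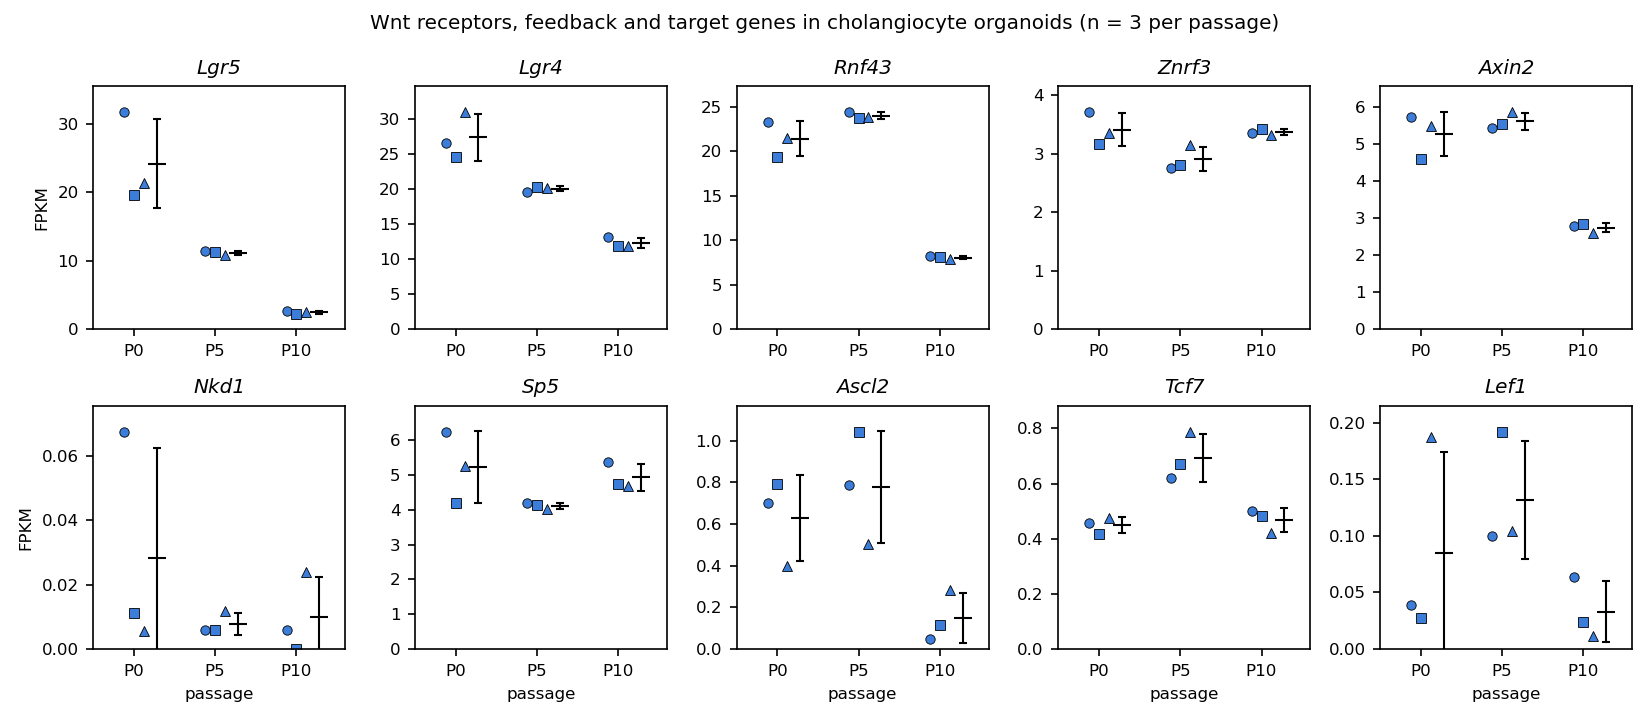
FPKM of the 10 members in each cholangiocyte organoid library by passage, each panel on its own axis from 0. Points are libraries (circle, square and triangle for M1, M2 and M3), and the bar beside them is the mean with its SD (n = 3), drawn down to 0 where the SD exceeds the mean. Lgr5 steps down at each passage, Rnf43 and Axin2 are lowest at P10, and Nkd1 and Lef1 stay at or below 0.192 FPKM.

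Lgr5, the R-spondin receptor that marks stem cells of the gut, is on chromosome 10 (115450311 to 115587780, minus strand, GRCm38). It was at 31.7, 19.6 and 21.3 FPKM in the 3 P0 libraries, 11.4, 11.3 and 10.8 at P5, and 2.72, 2.21 and 2.49 at P10. The 3 passages did not overlap, and P0 spread far more widely than the later ones. Mean FPKM was 9.79 times lower at P10 than at P0 (24.2 ± 6.57 against 2.47 ± 0.252, SD, n = 3), with a log2 difference of -2.83 ± 0.15 (SE) and an adjusted p of 1.12e-07 by limma. Both steps passed the test, with log2 differences of -1.02 (adjusted p = 2.69e-04) from P0 to P5 and -1.81 (adjusted p = 5.98e-06) from P5 to P10.

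Lgr4, the more broadly expressed relative of Lgr5 (chromosome 2, 109917647 to 110014257, plus strand), had a smaller log2 difference. Its FPKM was 26.6, 24.5 and 31.0 at P0, 19.7, 20.3 and 20.2 at P5, and 13.2, 11.9 and 11.9 at P10. The log2 difference of P10 against P0 was -1.09 ± 0.08 (SE, adjusted p = 1.23e-06 by limma), a 2.23-fold lower mean. The 2 receptors were thus at like levels at P0, with an Lgr5 to Lgr4 FPKM ratio of 0.687 to 1.19, and apart at P10, with a ratio of 0.187 to 0.210. This ratio is taken within a library and does not depend on the scaling between libraries.

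Rnf43 and Znrf3 encode the pair of membrane E3 ligases that remove Frizzled receptors. Rnf43 (chromosome 11, 87662722 to 87735539, plus strand) was at 23.4, 19.4 and 21.6 FPKM at P0, 24.4, 23.7 and 23.9 at P5, and 8.19, 8.11 and 7.86 at P10. P5 against P0 did not pass (log2 difference 0.16, adjusted p = 0.0549), and from P5 to P10 the mean fell 2.98-fold, with a log2 difference of -1.47 ± 0.06 (SE, adjusted p = 1.50e-07 by limma). Znrf3 (chromosome 11, 5276324 to 5444847, minus strand) was at 3.71, 3.16 and 3.36 FPKM at P0, 2.76, 2.81 and 3.15 at P5, and 3.35, 3.42 and 3.31 at P10. Its log2 difference of P10 against P0 was -0.01 ± 0.07 (SE, adjusted p = 0.863 by limma), and its dip at P5 (log2 difference -0.17, adjusted p = 0.0486) passed the threshold only narrowly, with adjusted p from 0.0114 to 0.142 under the other settings. The Rnf43 to Znrf3 ratio was 6.13 to 6.42 at P0, 7.59 to 8.86 at P5 and 2.37 to 2.44 at P10, without overlap between passages.

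Axin2 and Sp5 are a scaffold of the destruction complex and a zinc-finger repressor, both in common use as Wnt readouts. Axin2 (chromosome 11, 108920349 to 108950783, plus strand) was at 5.73, 4.59 and 5.47 FPKM at P0, 5.43, 5.54 and 5.85 at P5, and 2.79, 2.84 and 2.60 at P10. Its first step did not pass (log2 difference 0.08, adjusted p = 0.384), and from P5 to P10 it fell by 0.82 on the log2 scale (SE 0.08, adjusted p = 1.38e-05 by limma). Sp5 (chromosome 2, 70474923 to 70477729, plus strand) was at 6.23, 4.19 and 5.25 FPKM at P0, 4.19, 4.14 and 4.02 at P5, and 5.38, 4.74 and 4.67 at P10. Its log2 difference of P10 against P0 was -0.06 ± 0.11 (SE, adjusted p = 0.638 by limma), and neither step passed (adjusted p = 0.0545 and 0.113). The Axin2 to Sp5 ratio was 0.920 to 1.09 at P0, 1.29 to 1.46 at P5 and 0.519 to 0.599 at P10.

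Each step was also read on its own. In P5 against P0, 3 members were called lower (Lgr5, Lgr4 and, narrowly, Znrf3) and 0 higher, where 22.6% of tested genes were called lower and 34% higher. Scaling by median-ratio size factors instead turned that background from 3938 higher and 2621 lower genes to 3087 higher and 3449 lower. In P10 against P5, 4 were called lower (Lgr5, Rnf43, Axin2 and Lgr4) and 0 higher, where 30.5% were called lower and 31% higher. With only the 2 groups in the fit, Sp5 and Znrf3 were also called, both higher (adjusted p = 0.0132 and 0.0341 by limma). That fit called 4117 of 11593 genes higher and 4018 lower. The 2 steps share the P5 libraries, so their values are not independent.

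Whether the second step differed from the first was tested as a contrast in the same fit, the P5 to P10 change minus the P0 to P5 change, added after the values had been seen. It was called lower for Rnf43 (-1.63, SE 0.11, adjusted p = 4.56e-06), Axin2 (-0.90, SE 0.13, adjusted p = 4.16e-04) and Lgr5 (-0.79, SE 0.25, adjusted p = 0.0265), and higher for Znrf3 (0.33, SE 0.12, adjusted p = 0.0372), on the log2 scale by limma. In this contrast 27.8% of tested genes were called lower and 20.9% higher. Median-ratio scaling turned that balance from 2425 higher and 3219 lower genes to 3027 higher and 2703 lower. Lgr4 did not pass (-0.24, SE 0.14, adjusted p = 0.177), nor did Sp5 (0.48, SE 0.19, adjusted p = 0.0556). The call for Lgr5 was lost without P0 replicate 3, P10 replicate 2 or any 1 of the P5 libraries (adjusted p up to 0.0822), and that for Znrf3 without most single libraries (up to 0.137), whereas those for Rnf43 and Axin2 held in every run. Without P0 replicate 3, 3 members were still called lower, with Lgr4 in place of Lgr5. Without P0 replicate 2, 2 members were called higher, Sp5 beside Znrf3.

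**Figure D2:**
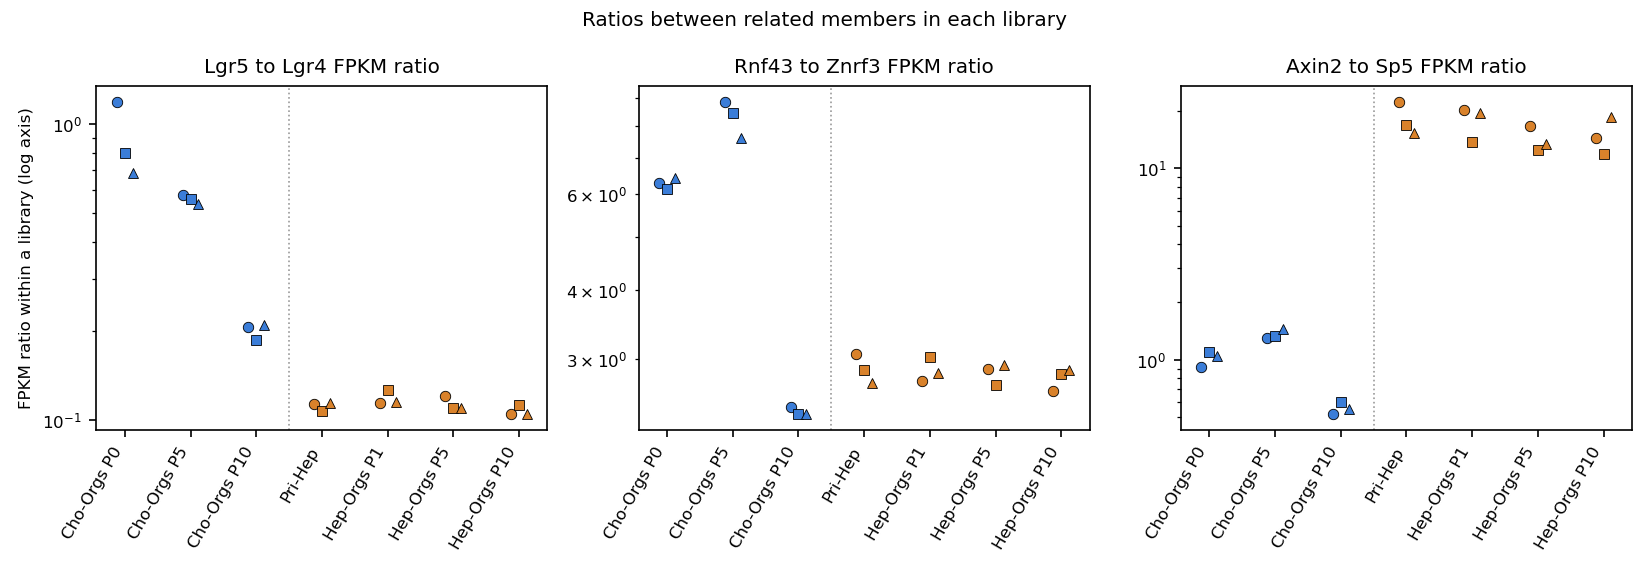
FPKM ratio of Lgr5 to Lgr4, Rnf43 to Znrf3 and Axin2 to Sp5 within each bulk library, on log axes, with cholangiocyte organoids in blue, hepatocyte-table libraries in orange and 1 point per library. All 3 ratios are lowest at P10 among the Cho-Orgs. Gene lengths differ between the tables for Lgr5 and Rnf43, so blue and orange levels are not on 1 scale.

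The other 4 members lay below the filter in Cho-Orgs and were not tested there. Tcf7 (chromosome 11, 52252371 to 52283014, minus strand), a TCF factor abundant in T cells, was at 0.418 to 0.476 FPKM at P0, 0.619 to 0.787 at P5 and 0.420 to 0.502 at P10, resting on 200 to 383 fragments per library. Ascl2 (chromosome 7, 142966829 to 142969264, minus strand), a basic helix-loop-helix factor of gut stem cells, was at 0.700, 0.792 and 0.397 FPKM at P0, 0.788, 1.04 and 0.502 at P5, and 0.0488, 0.116 and 0.281 at P10. With every gene above 0 in the fit (22670 genes), Ascl2 was called lower at P10 than at P0 (log2 difference -0.50, adjusted p = 0.0197 by limma) and than at P5 (-0.62, adjusted p = 0.00977). Tcf7 was called higher at P5 than at P0 (0.22, adjusted p = 0.00627) and lower at P10 than at P5 (-0.20, adjusted p = 0.00822). Of the 22670 genes, that fit called 4437 higher and 3147 lower in P5 against P0. It called 3790 higher and 4048 lower in P10 against P5, and 5382 higher and 4695 lower in P10 against P0. At P10 Ascl2 rested on 3, 7 and 17 fragments.

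Lef1 (chromosome 3, 131110471 to 131224356, plus strand), a TCF/LEF factor that is itself a Wnt target in many tissues, had 2 to 33 fragments per Cho-Orgs library (0.0118 to 0.192 FPKM). Nkd1 (chromosome 8, 88521354 to 88594884, plus strand), which binds Dishevelled and dampens its signal, had 12, 2 and 1 fragments at P0, 1, 1 and 2 at P5, and 1, 0 and 4 at P10. For Nkd1, the libraries with 12 and 4 fragments were the only ones above a floor of 3 fragments, which is 0.0168 to 0.0179 FPKM. The Lef1 libraries did not overlap between P5 (17, 33 and 18 fragments) and P10 (11, 4 and 2), and with every gene above 0 in the limma fit that difference was not called (log2 difference -0.13, adjusted p = 0.133). No comparison of Nkd1 was called in that fit either.

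Around the members, the rest of the pathway did not move one way between P0 and P10, and its counts are to be read against the 41% of all tested genes called higher and 31.3% called lower. Of 4 tested Wnt ligands of 19, 2 rose and 0 fell: Wnt7b went from 17.5 to 46.7 and 68.0 FPKM (log2 difference 1.90, adjusted p = 1.44e-08 by limma for P10 against P0), and Wnt7a from 0.603 to 1.22 FPKM (0.49, adjusted p = 0.0338). Both secretion genes rose, Porcn, which acylates Wnts (1.64, adjusted p = 1.19e-05), and Wls, which carries them to the surface (0.17, adjusted p = 0.00518). None of the 4 R-spondin genes and none of 12 secreted antagonists passed the filter. The median log2 difference was 0.27 over the tested ligands and 0.91 over the 2 secretion genes.

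Among 9 tested Frizzled and LRP receptors of 12, 2 rose and 4 fell. The 5 largest were Fzd4 (-1.26), Fzd7 (0.92), Fzd8 (-0.51), Fzd6 (0.48) and Fzd2 (-0.47), and the co-receptor Lrp5, highest of the list at 79.9 FPKM at P0, fell by 0.27 on the log2 scale. All 10 genes of beta-catenin and its destruction complex were tested and 6 rose, among them the Dishevelled genes Dvl1 (1.09), Dvl3 (0.56) and Dvl2 (0.21), beta-catenin itself (Ctnnb1, 0.25) and its kinase Csnk1a1 (0.26), with 0 falling. Of 7 tested nuclear partners of 9, 3 rose and 1 fell, led by the co-repressor Tle2 (1.24), the co-activator Bcl9l (-0.48) and the TCF factor Tcf7l2 (0.36). Pygo2 also rose, from a mean of 13.7 to 17.3 FPKM. Tle3, the most abundant of the list, stood at a mean of 26.3 FPKM at P0 and 27.1 at P10.

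Of 6 tested further feedback and target genes of 9, 2 rose and 3 fell. Myc rose from 32.3 to 150 FPKM (log2 difference 2.19, adjusted p = 6.74e-10) and the cyclin gene Ccnd1 from 216 to 471 FPKM (1.14, adjusted p = 2.79e-06). Prox1 (-3.48), Tnfrsf19, also called Troy (-1.75), and Cd44 (-0.29) fell. The list median was -0.07, against 0.07 for all genes.

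**Figure D3:**
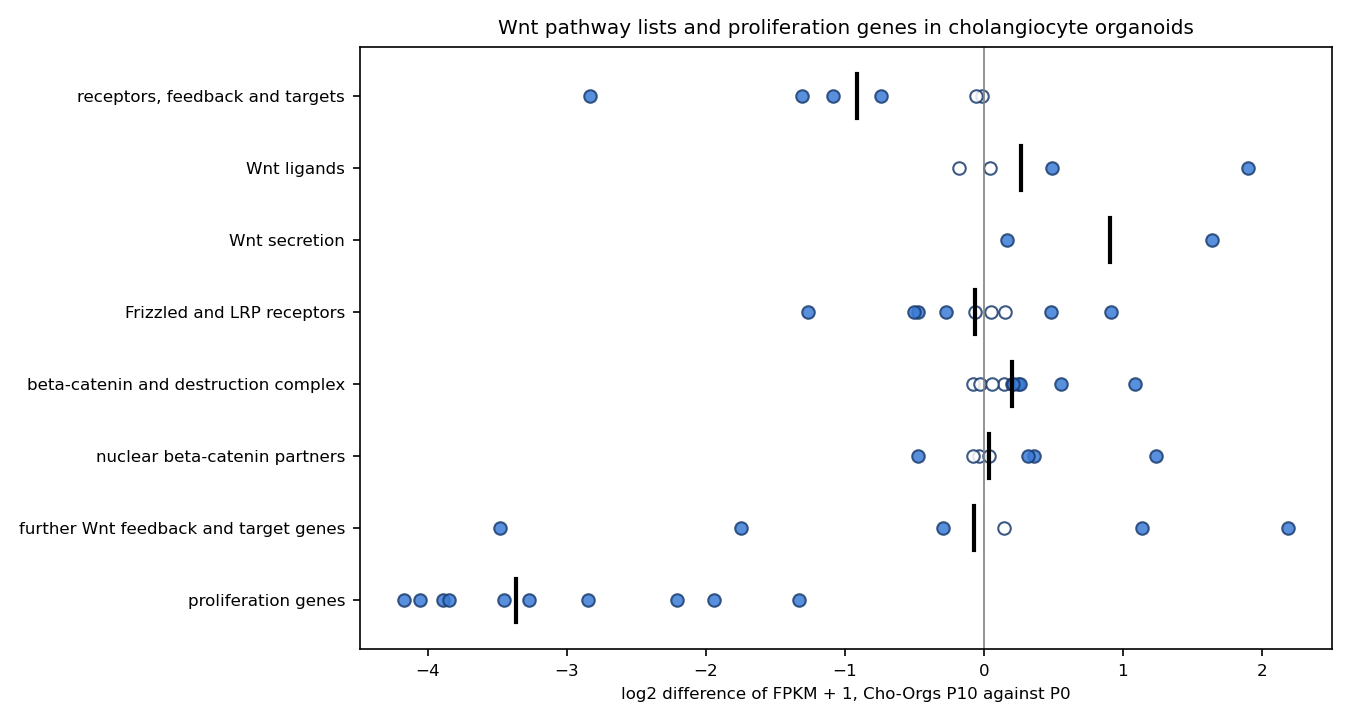
Log2 difference of FPKM + 1 between Cho-Orgs P10 and P0 for the tested genes of each list, 1 point per gene, filled where the limma adjusted p was below 0.05 and open otherwise, with the list median as a black bar. The receptors, feedback and target genes lie at or left of 0 (median -0.91), Wnt ligands and secretion genes mostly right of it, and all 10 proliferation genes left of it (median -3.36).

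Cell cycle and cell type genes moved alongside. All 10 proliferation genes fell at each step, and their summed level was 362 to 525 FPKM at P0, 201 to 207 at P5 and 81.8 to 88.9 at P10. Among 10 hepatocyte markers, 8 of 9 tested fell between P0 and P10, from a summed 7217 to 8170 FPKM to 77.8 to 83.4. Of 10 cholangiocyte markers, 4 rose and 5 fell between P0 and P10, where 41% of all tested genes were called higher and 31.3% lower. Mesenchymal markers summed to 64.6 to 79.5 FPKM at P0, almost all of it Reln, and to 0.174 to 0.239 at P10, and macrophage markers to 43.7 to 49.5 FPKM at P0, 72.1 to 77.3 at P5 and 10.1 to 10.5 at P10. The P5 value was almost all Cd68, a lysosomal protein gene (mean 30.4, 74.5 and 9.53 FPKM), while Lyz2 went from 13.2 FPKM at P0 to 0 at P5 and P10, and C1qa, C1qb and C1qc from under 1 FPKM to 0. The part of these shifts in the fall of Lgr5, Lgr4, Rnf43 and Axin2 was not tested.

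The genes whose pattern over the 9 Cho-Orgs libraries lay nearest to Lgr5, by root mean square difference of centred log2(FPKM + 1), were Cenpf (0.104), Kif22 (0.108), Ttk (0.123), Ncapg (0.124) and Ctse (0.127). The first 4 encode a kinetochore protein, a kinesin, a spindle checkpoint kinase and a condensin subunit, and Ctse an aspartic protease. Mean FPKM at P0 and P10 was 7.34 and 0.189 for Cenpf, 15.2 and 0.982 for Kif22, and 8.92 and 0.258 for Ttk. It was 8.83 and 0.496 for Ncapg and 35.0 and 3.71 for Ctse, beside 24.2 and 2.47 for Lgr5. The first 4 thus fell further in proportion than Lgr5, which the log2(FPKM + 1) scale understates. Nearest to Axin2 were Rpn2 (0.0615), Gm11110 (0.0654), Bicdl1 (0.0721), Pmvk (0.0758) and Fuca1 (0.0767). Rpn2, a subunit of the oligosaccharyltransferase, had mean FPKM of 120, 128 and 74.5 at the 3 passages.

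In the hepatocyte table, no difference of any tested member was detected from the libraries labelled Pri-Hep to Hep-Orgs P10. Over the 12 libraries the lowest, median and highest FPKM were 17.4, 18.4 and 18.6 for Rnf43, 11.6, 12.2 and 12.6 for Lgr4, 6.54, 7.36 and 7.96 for Axin2, and 5.83, 6.47 and 6.86 for Znrf3. Lgr5 was at 1.26, 1.38 and 1.46 FPKM and Tcf7 at 0.667, 1.05 and 1.35. These 6 passed the filter of 1 FPKM in 3 libraries, which 10986 genes passed.

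None of the 6 was called in any of the 7 comparisons by limma, and the 42 log2 differences lay between -0.13 and 0.14. The share of all tested genes called in either direction was 0.0091% in P1 against Pri-Hep, 0.0091% in P5 against Pri-Hep, 0% in P10 against Pri-Hep, 0% in P5 against P1, 0.0273% in P10 against P5, 0% in P10 against P1 and 0% in all Hep-Orgs against Pri-Hep. The 4 comparisons with 0 calls by limma had 730, 436, 986 and 966 genes at an unadjusted p below 0.05, and limma-voom on the recovered fragments called 0, 0, 29 and 12 genes there. Of the members' 42 limma values, 4 had an unadjusted p below 0.05, and limma-voom also called 0 members. Those 4 lay in P1 against Pri-Hep (2), P5 against Pri-Hep (1) and all Hep-Orgs against Pri-Hep (1). In these comparisons 911, 1184 and 966 of the 10986 genes were below 0.05. The smallest unadjusted value belonged to Rnf43 in all Hep-Orgs against Pri-Hep, with 17.9, 17.4 and 17.5 FPKM in the 3 Pri-Hep libraries and 17.7 to 18.6 in the Hep-Orgs (limma log2 difference 0.06 ± 0.02, SE, adjusted p = 0.447). The overlap came from P10 replicate 1 (17.7 FPKM), and all libraries of P1 (18.5 FPKM each) and P5 (18.4 FPKM each) lay above those labelled Pri-Hep. Other tested members also lay apart from Pri-Hep: Lgr4 below it in P1 and P5, Axin2 below it in P1 and P10, and Znrf3 above it in P10. The share of all genes that lie apart in this way was not counted, so these separations are not read as differences of the members. For Lgr5, all Hep-Orgs against Pri-Hep gave -0.01 ± 0.04 (SE, adjusted p = 0.957 by limma).

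The spread over these 12 libraries was set against counting error, as a chi-square per degree of freedom that is near 1 where libraries differ by sampling alone. It was 0.487 for Lgr5 and 0.928 for Lgr4, and 1.81 for Tcf7, 2.09 for Znrf3 and 2.35 for Axin2, beside a median of 1.62 over all tested genes. The value for Lgr5 rests on 3156 fragments in all. Within groups, pairs of libraries differed by 1.97 to 3.31 times counting error over all tested genes, which says that no pair agreed within sampling noise and not that the samples were separate cultures. In the Cho-Orgs table the same measure was 4.10 to 93.9, highest between the P0 libraries.

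**Figure D4:**
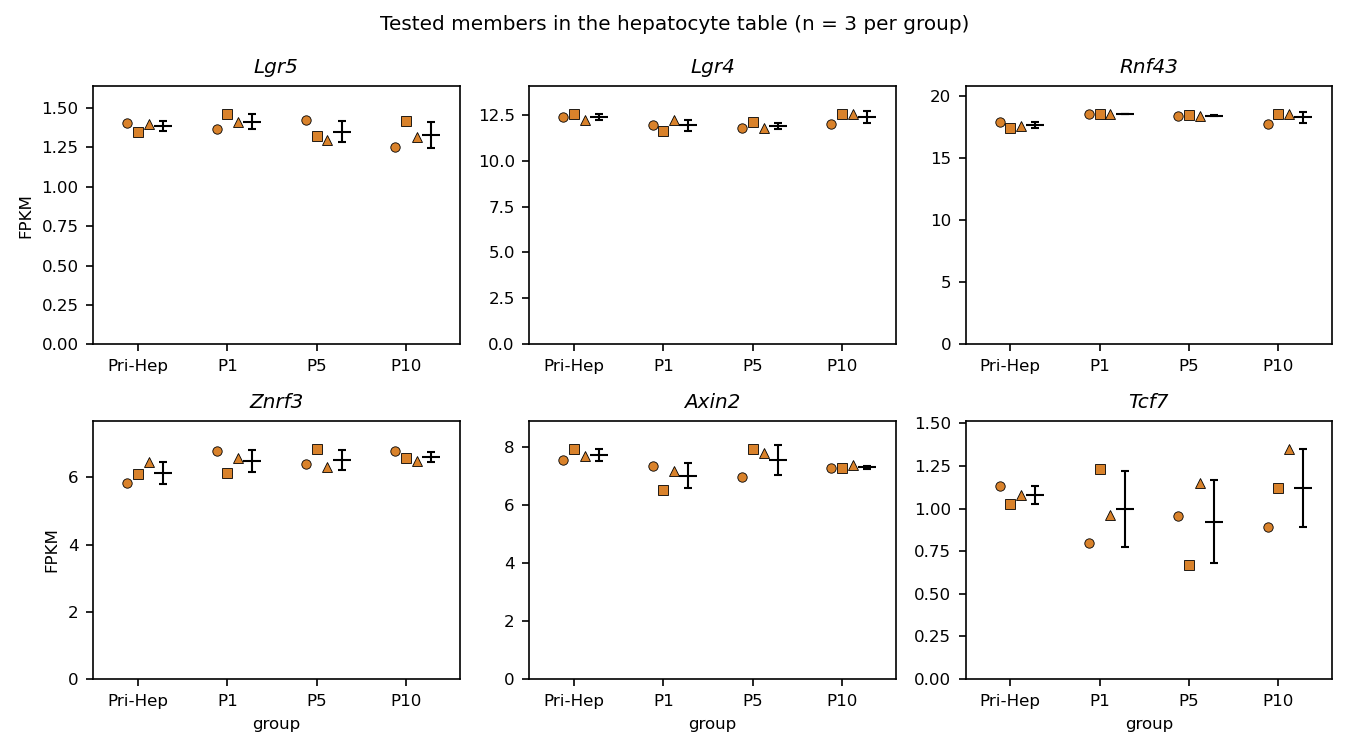
FPKM of the 6 tested members in each library of the hepatocyte table, on axes from 0, with points for replicates 1 (circle), 2 (square) and 3 (triangle) and the mean with its SD (n = 3). Lgr5 lies between 1.26 and 1.46 FPKM and Rnf43 between 17.4 and 18.6 FPKM in every library.

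Sp5, Ascl2, Nkd1 and Lef1 lay below the filter. Sp5 had 11 to 26 fragments per library (0.340 to 0.637 FPKM), Ascl2 and Nkd1 0 to 3 fragments, and Lef1 0 or 1. In all Hep-Orgs against Pri-Hep, limma called 0 genes of any of the Wnt lists. Proliferation genes summed to 48.5 to 53.8 FPKM over the 12 libraries.

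The tables differ in the gene lengths behind FPKM, which matters for some members when levels are set side by side. The hepatocyte table lists 10264 bases for Lgr5 where the cholangiocyte table implies about 4937, and 2625 for Tcf7 where the other implies about 13307. For Axin2 (5506 and about 5588) and Znrf3 (7893 and about 8027) the lengths are alike. As CPM, fragments scaled to the library's total without gene length, Lgr5 stood at 12.9 to 15.1 in the hepatocyte table, and in the Cho-Orgs at a mean of 119 at P0, 55.6 at P5 and 12.2 at P10. Axin2 stood at 36.1 to 44.1 CPM in the hepatocyte table and at 29.4, 31.6 and 15.3 in the Cho-Orgs, and Sp5 at 0.717 to 1.35 and at 11.5, 9.12 and 10.8. Tcf7 stood at 1.76 to 3.55 CPM in the hepatocyte table and at 5.99, 9.29 and 6.22 in the Cho-Orgs. Its mean FPKM ran the other way, and with the shorter length it passed the FPKM filter only in the hepatocyte table. The tables were normalized separately and hold different media and cell sources, so these levels were not tested against each other.

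In the Smart-Seq table, 6 members were lower in the grape-like library than in both others by the measure given below. Among the 6, Sp5 was at 0.893 FPKM in the grape-like library, 5.01 in the intermediate and 12.1 in the round-like one, Axin2 in the same order at 5.14, 14.8 and 26.2, and Rnf43 at 4.77, 24.8 and 27.8. Lgr5 was at 1.43, 5.87 and 7.94 FPKM, Znrf3 at 1.16, 3.50 and 5.87, and Lgr4 at 5.65, 19.0 and 17.4. With 1 library per morphology there is no replicate check and no test, and the values compare libraries. A gene was counted as higher or lower where log2(FPKM + 1) differed by at least 1.

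By that measure 6 members were lower in the grape-like than in the round-like library, where 8.82% of 12595 genes at 1 FPKM or more in any library were lower and 12.9% higher, and 1, Nkd1, was higher. The round-like to grape-like FPKM ratio was 13.6 for Sp5 (95% exact counting interval 10.7 to 17.4), 5.84 for Rnf43 (5.43 to 6.28), 5.57 for Lgr5 (4.89 to 6.36), 5.09 for Axin2 (4.77 to 5.43), 5.07 for Znrf3 (4.52 to 5.70) and 3.08 for Lgr4 (2.88 to 3.29). The intervals cover counting error only and treat every fragment as a separate draw. Amplified cDNA copies are not separate molecules, so even the counting error may be understated. The intermediate library stood closer to the round-like one: only Sp5 was lower past the limit, where 2.54% of genes were lower and 3.85% higher, and with median-ratio scaling 0 members were. Against the intermediate library, the grape-like one was lower for the same 6 members and higher for Nkd1 and Ascl2, where 7.15% of genes were lower and 9.71% higher.

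**Figure D5:**
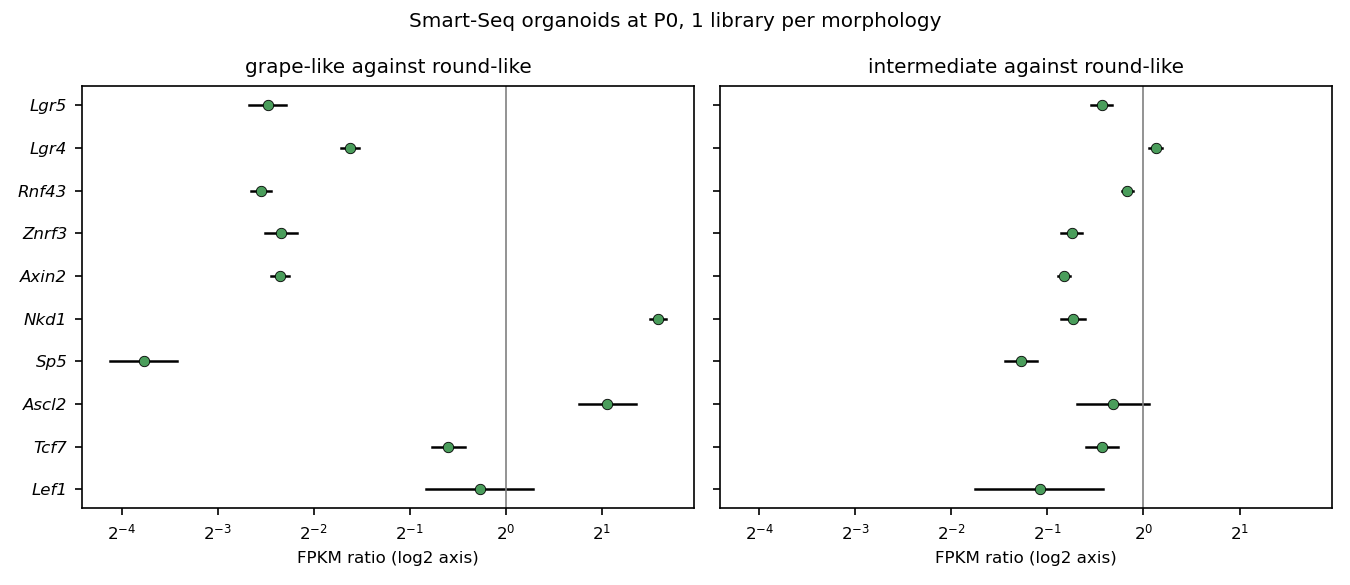
FPKM ratio of the grape-like to the round-like library (left) and of the intermediate to the round-like library (right) for the 10 members, on a log2 axis, with 95% exact counting intervals as lines and 1 library per morphology. In the left panel 6 genes lie at 0.325 or less, Sp5 lowest at 0.0736, while Nkd1 (3.00) and Ascl2 (2.08) lie above 1.

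Nkd1 and Ascl2 ran the other way. Nkd1, nearly absent from the bulk tables, was at 24.6 FPKM in the grape-like library, 4.93 in the intermediate and 8.19 in the round-like one, on 4403, 889 and 1475 fragments, so that grape-like exceeded round-like 3.00-fold (2.83 to 3.19). Ascl2 was at 4.42, 1.71 and 2.12 FPKM. Tcf7 was at 0.883, 0.991 and 1.34 FPKM and Lef1 at 0.288, 0.165 and 0.347, neither past the limit in any pair.

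Markers of other liver cells were also highest in the grape-like library, and their sums were lower in the round-like than in the intermediate one. Between the intermediate and round-like libraries neither Nkd1 nor Ascl2 passed the limit. The intermediate to round-like ratio was 0.601 for Nkd1 (0.553 to 0.654) and 0.803 for Ascl2 (0.619 to 1.04). Macrophage markers, all 10 present, summed to 10587, 3020 and 1656 FPKM in the same order of libraries, led by the lysozyme gene Lyz2 at 5942 FPKM. Mesenchymal markers summed to 1609, 414 and 353 FPKM and endothelial markers to 153, 92.9 and 39.2, with all 10 of each above 1 FPKM in the grape-like library. Rspo3, the R-spondin made by endothelial and stellate cells, was at 56.9, 9.85 and 9.07 FPKM, and the antagonist gene Dkk3 at 25.3, 9.64 and 6.53, whereas neither passed the filter in the bulk tables. Cholangiocyte markers summed to 938, 3653 and 3321 FPKM, hepatocyte markers to 6032, 10397 and 1403 FPKM, and proliferation genes to 438, 354 and 649 FPKM. The pericentral gene Glul, itself Wnt-driven in hepatocytes, was at 220, 117 and 95.1. The part of these cells in the levels of the members was not tested.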

How the data were processed

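Poly(A) libraries of mouse hepatocytes, hepatocyte organoids and cholangiocyte organoids, and Smart-Seq libraries of picked organoids, were quantified by the authors, who deposited FPKM values per gene in 3 separately normalized tables. The submitters' processing notes name featureCounts 2.0.3, edgeR 3.40.2 and the mm10 build, with no role or order. All 24 value columns matched a sample, leaving 0 unmatched. Whole fragments were recovered from the FPKM steps (tolerance 0.001 of a fragment) for all genes of the hepatocyte table, 25871 of 25876 in the cholangiocyte table and 20726 of 20729 in the Smart-Seq table. In the last, the multiple was set from the cholangiocyte table for 5002 genes and could not be checked for 2045. For 304 more, the comparison gave no whole multiple.

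Bulk tables were tested on log2(FPKM + 1) with limma 3.58.1 in R 4.3.3 (two-sided, moderated with a mean-variance trend), a scale that understates the change of low genes. Genes with at least 1 FPKM in 3 libraries were kept, all groups of a table entered 1 fit, and p-values were adjusted by Benjamini-Hochberg over all genes tested, with a threshold of 0.05. Tables were never fitted together. Smart-Seq libraries, 1 per morphology, were compared by size only, with exact 95% intervals for counting error. The members and gene lists were chosen with earlier results of these data known. All 10 members are named, and of each other Wnt list up to 5 genes, the largest past the threshold in Cho-Orgs P10 against P0, and the most abundant. Genes of the cell type lists, Rspo3, Dkk3 and Glul were named after their values were seen. Alternatives were another pseudocount (0.1), other filters, TPM and median-ratio scaling, no variance trend, fits of 2 groups only, a replicate block, leaving out each library and limma-voom on recovered fragments. Scripts were tested on simulated data. Tables and plots used Python 3.11.15, pandas 2.3.3, numpy 2.4.6, scipy 1.17.1 and matplotlib 3.10.9.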

Additional observations from a re-analysis of the deposited data

How the results depend on the processing

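The falls of Lgr5, Lgr4, Rnf43 and Axin2 between P0 and P10 of the Cho-Orgs were called by limma under every alternative run that kept the gene, and leaving out single libraries gave 4 to 4 members called. Log2 differences then ranged from -2.96 to -2.63 for Lgr5 and from -1.37 to -1.24 for Rnf43. Leaving out 1 library gave 2 to 4 members called in P5 against P0, 4 to 6 in P10 against P5 (the added calls, Sp5 and Znrf3, were higher), 2 to 5 in the second step minus the first (4 with all libraries) and 0 to 0 in each hepatocyte comparison. A mean FPKM of at least 5 left 2 called members in the step contrast, since fewer genes were tested. Median-ratio scaling left 0 members past the limit in intermediate against round-like, in place of 1 (Sp5), and the cause was not tested. In P10 against P0 the sign of values near 0 turned for Znrf3 with TPM (0.0117), and leaving out 1 library gave -0.0546 to 0.0342 for Znrf3 and -0.183 to 0.0560 for Sp5, both above 0 only without P0 replicate 1. In P5 against P0, Rnf43 was called higher with a mean FPKM of at least 5 (adjusted p = 0.0497), with TPM (0.0198), with limma-voom (0.0315) and without P0 replicate 1 (0.00696), and Sp5 lower with median-ratio scaling (0.0181) and without P0 replicate 2 (0.0024).

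With the replicate number as a replicate block, 3, 4, 4 and 4 members were called in the 4 Cho-Orgs comparisons, as without it. Znrf3 was lost (adjusted p = 0.0765) and Sp5 gained (0.0350) in P5 against P0. In the step contrast Znrf3 was lost (0.0622) and Sp5 gained (0.0364). Same-numbered libraries did not deviate together: the median correlation of deviations was -0.0063 over 9 Cho-Orgs pairs, against -0.0030 over 18 pairs of other numbers, and a library correlated best with its own number in 6 of 18 cases there and in 8 of 36 in the hepatocyte table.

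Over all genes, the hepatocyte comparisons had 0 to 3 calls as reported, up to 7 under the other limma settings and 0 to 39 by limma-voom. Depth limits Nkd1, Lef1 and Ascl2 in the bulk tables, and the Smart-Seq values have no replicates.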
